A study of Mus musculus with 6 samples.

Results

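The E proteins and their Id inhibitors are 7 mouse genes, Tcf3, Tcf4, Tcf12, Id1, Id2, Id3 and Id4, of the 21883 protein-coding genes placed in the RefSeq annotation. Their chromatin was described from ATAC-seq peak lists, in which Tn5 transposase marks accessible DNA, for the lines OB Fam20c f/f (f/f below) and its derivative OB Fam20c KO (KO). Peaks of the 6 lists that shared 1 bp or more were merged into regions, and every region that overlapped one of the gene spans extended by 50 kb on each side was taken. This gave 103 of the 89410 regions of the series, 61 of them at the 3 E protein genes and 42 at the 4 Id genes. Tcf4 here is the basic helix-loop-helix gene and not Tcf7l2, the Wnt pathway gene that shares its nickname.

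The f/f cells are an immortalized mouse osteoblast line with floxed Fam20c alleles, and Fam20c encodes a kinase of the secretory pathway that phosphorylates secreted proteins. The KO cells were derived from the same line by infection with a lentivirus carrying Cre recombinase, so both groups are one line before and after the infection. Whether the f/f cells received a control virus, and whether the KO line is 1 clone, was not given in the sources used here. There were 3 libraries per group, and since nothing says that they came from separate cultures, the p-values measure the spread between these libraries, which may be technical.

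E proteins are class I basic helix-loop-helix transcription factors that bind E-boxes, the sequence CANNTG, as homodimers or as heterodimers with lineage factors such as Twist1. Id proteins have the helix-loop-helix but lack the basic region, so that a dimer of an E protein with an Id protein does not bind DNA. Id1, Id2 and Id3 are known as early targets of BMP signalling in osteoblasts, and Id4 is known to promote osteoblast over adipocyte differentiation.

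The lists held 64033, 62781 and 74797 peaks for f/f replicates 1, 2 and 3, and 64141, 64582 and 32958 peaks for KO replicates 1, 2 and 3. KO replicate 3 stood apart by its short list, and the main counts and calls below are also given without it. Read counts are not part of the lists, and a missing peak means only that none passed the authors' threshold in that library. Of 8 osteoblast marker genes, 6 had a peak within 3 kb of the gene in every list, and Bglap and Ibsp, which encode osteocalcin and bone sialoprotein, had none in any list. Of 8 marker genes of other cell types, 4 or 5 had a peak in each of the first 5 lists and none had in KO replicate 3. Fam20c itself had 1 or 2 regions with a peak in every list, KO lists included, and since the position of the deleted part was not used here, this does not check the knockout.

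The sequences around the starts of the genes are shown first, because 2 of these start regions, at Id2 and Id4, differed in rank between the groups and the E-box is what E proteins bind. RefSeq promoter windows of 300 bases, from 250 before to 50 after the start on build GRCm38.p6, were at hand for 5 of the 7 genes, and Tcf12 had 3 of them. Capitals mark each CANNTG, searched on both strands, of which CAGCTG is one form. The Id2 window lies on the minus strand at chr12:25096043-25096342, the Id3 window on the plus strand at chr4:136143572-136143871, the Id4 window on the plus strand at chr13:48260866-48261165, and the outermost Tcf12 window on the minus strand at chr9:72111770-72112069.
Id2: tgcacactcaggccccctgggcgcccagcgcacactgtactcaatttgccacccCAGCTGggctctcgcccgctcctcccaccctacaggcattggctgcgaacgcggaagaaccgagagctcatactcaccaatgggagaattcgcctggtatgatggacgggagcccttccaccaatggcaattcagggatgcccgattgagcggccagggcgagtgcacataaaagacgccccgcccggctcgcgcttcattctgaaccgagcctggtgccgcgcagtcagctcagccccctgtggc
Id3: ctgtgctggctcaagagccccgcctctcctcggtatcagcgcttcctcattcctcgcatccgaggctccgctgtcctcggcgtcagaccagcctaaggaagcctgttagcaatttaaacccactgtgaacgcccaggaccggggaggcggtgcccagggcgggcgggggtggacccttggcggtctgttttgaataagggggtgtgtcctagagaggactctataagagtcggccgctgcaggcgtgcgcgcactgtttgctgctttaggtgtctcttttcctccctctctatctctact
Id4: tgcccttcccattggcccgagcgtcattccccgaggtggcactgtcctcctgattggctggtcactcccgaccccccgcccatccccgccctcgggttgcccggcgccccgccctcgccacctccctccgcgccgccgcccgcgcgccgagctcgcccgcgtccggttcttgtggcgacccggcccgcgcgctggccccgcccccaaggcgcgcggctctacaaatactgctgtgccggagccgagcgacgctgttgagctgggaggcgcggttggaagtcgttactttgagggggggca
Tcf12: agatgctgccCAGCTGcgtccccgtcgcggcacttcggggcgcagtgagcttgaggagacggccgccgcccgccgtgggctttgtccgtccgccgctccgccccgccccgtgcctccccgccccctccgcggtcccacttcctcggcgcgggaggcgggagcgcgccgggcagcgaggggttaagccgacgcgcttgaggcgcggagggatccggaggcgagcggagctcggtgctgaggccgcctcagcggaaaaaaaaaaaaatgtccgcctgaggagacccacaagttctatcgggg

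The Id2 and the Tcf12 window each held 1 E-box, of the form CAGCTG in both, and the Id3 and Id4 windows held none. Over all 32851 promoter windows of the table, an E-box was present in 72.3% and its form CAGCTG in 16.3%. The Tcf3 window held 1 E-box, the other Tcf12 windows held 2 and 1, and none of these was of that form. The form CATCTG, searched together with its reverse complement, was in none of the 7 windows and in 17.2% of all windows. The sequence GGCGCC, a palindrome known from BMP-responsive Id1 enhancers, was found once in the Id2 and once in the Id4 window and in 11.9% of all windows. The share of G and C was 63.3% in the Id2, 60% in the Id3 and 73.3% in the Id4 window, against a median of 52.7% over all windows. These matches describe letters in the windows and not bound sites.

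Of the 103 regions, 79, 81 and 91 had a peak in f/f replicates 1, 2 and 3, and 74, 83 and 48 had a peak in KO replicates 1, 2 and 3. The groups overlapped, and the lowest number was that of the shortest list. For every 10000 peaks listed, the 7 genes held 12.3, 12.9 and 12.2 regions in f/f and 11.5, 12.9 and 14.6 in KO. A peak in all 6 lists was present at 47 regions, or 45.6%, against 33.4% over all regions, and 17 more had a peak in every list but KO replicate 3, or 16.5% against 19.2%. Another 11 regions had a peak in 1 list alone.

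Regions with a peak in 3 of 3 f/f libraries and in 0 of 3 KO libraries, called f/f-only, numbered 5 at these genes, or 4.85%, against 3.75% of all regions. KO-only regions numbered 0, against 0.179% of all regions. Regions listed for KO replicates 1 and 2 but for none of the f/f libraries numbered 4, or 3.88%, against 2.9% of all regions. These shares lie near those of all regions. With the same number of peaks taken from each list, which shortens the 5 longer ones, 1 region was f/f-only and 3 were KO-only, and none of the 5 f/f-only regions kept that class. Without f/f replicate 1 there were 9 f/f-only regions, and 8 without f/f replicate 2 or without KO replicate 2. Without KO replicate 3 there were 5, and the 4 regions listed for KO replicates 1 and 2 then counted as KO-only. Without f/f replicate 3, 1 region was KO-only, at Tcf4. Apart from the 4 regions listed for KO replicates 1 and 2, no share over all regions is given under these settings. The counts are therefore not read as gains or losses at these genes.

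With all 6 libraries, the 7 genes had fewer regions with a peak on average in KO than in f/f, with differences of KO minus f/f from -3.33 to -1.33 regions (n = 3 libraries per group), and for Id2 and Id3 the groups did not overlap. Without KO replicate 3 the difference was lower in KO at 5 genes, 0 at Tcf12 and 0.333 at Id1. At Id2, the inhibitor also known from lymphoid and fat cell development, 7, 8 and 8 regions had a peak in f/f and 5, 6 and 3 in KO (7.67 ± 0.577 against 4.67 ± 1.53, mean ± SD, exact permutation test, two-sided, p = 0.1). At Id3, the gene next to E2f2, 13, 13 and 13 regions had a peak in f/f and 12, 12 and 9 in KO (13 ± 0 against 11 ± 1.73, exact permutation p = 0.1). With 3 libraries against 3, 0.1 is the smallest p that this test can give. Of 18956 protein-coding genes with a peak within 50 kb, 12.8% likewise had more regions in every f/f list than in any KO list and 0.058% the opposite, so 2 of 7 genes is to be read against that share. Without KO replicate 3 the same 2 genes remained apart, with differences of -2.17 at Id2 and -1 at Id3, beside 12.9% of genes. With spans extended by 10 kb, the difference was -1 at Id2 and 0 at Id3. Counting only regions nearest to the gene itself, it was -3 at Id2 and -0.333 at Id3. The lower number at Id3 thus came mostly from regions farther out in its window.

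At the other 5 genes the groups overlapped. Tcf3, which encodes E2A, had 15, 17 and 17 regions with a peak in f/f and 14, 16 and 11 in KO (exact permutation p = 0.2). Tcf12, which encodes HEB, had 14, 15 and 19 in f/f and 14, 18 and 6 in KO (exact permutation p = 0.5). Tcf4, which encodes E2-2, had 12, 11 and 15 in f/f and 11, 14 and 9 in KO (exact permutation p = 0.6). In all 3 E protein genes KO replicate 3 was the lowest library. Id1 had 13, 12 and 13 in f/f and 13, 13 and 7 in KO (exact permutation p = 1), and Id4 had 5, 5 and 6 in f/f and 5, 4 and 3 in KO (exact permutation p = 0.3). With KO replicate 3 left out, the difference was -1.33 at Tcf3, -0.167 at Tcf4 and -0.833 at Id4. With the same number of peaks from each list, it was 2 at Tcf3, 1.33 at Tcf4, 0 at Tcf12, 0.333 at Id1, 0 at Id2, -1.33 at Id3 and -0.333 at Id4. The number thus stayed lower in KO at Id3 and Id4 and at no other of the 7 genes under that setting.

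**Figure D1:**
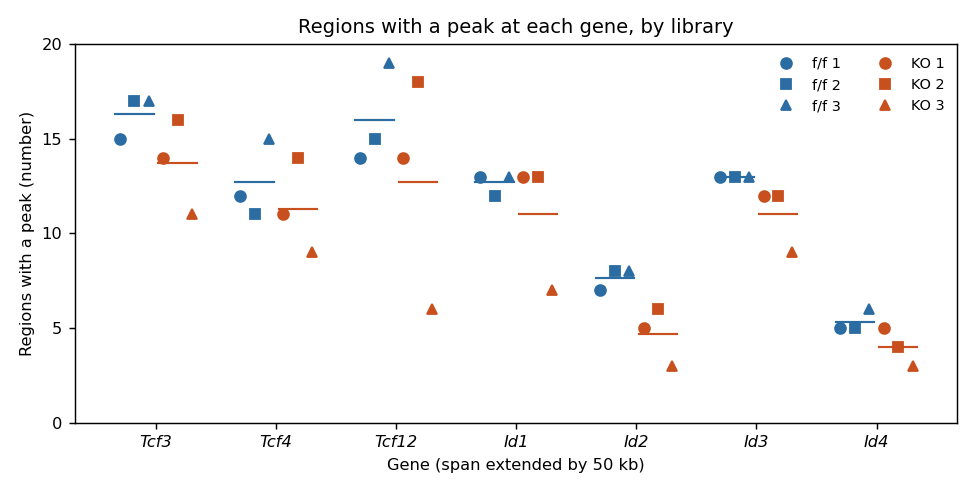
Number of regions with a peak (vertical axis) at each gene with 50 kb on either side, for each of the 6 libraries, with horizontal lines at the group means. KO replicate 3, the shortest list, is the lowest point at every gene, and the f/f and KO points are apart at Id2, where f/f has 7 to 8 and KO 3 to 6, and at Id3.

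The density of regions differed among the genes. Tcf3 had 16.1 regions per 100 kb of its window, Id1 13.8, Id3 12.8, Id2 8.8, Tcf12 6.26, Id4 5.72 and Tcf4 4.05, against a median of 5.78 over protein-coding genes. The windows of Tcf3 and Id1 hold 4 other protein-coding genes each (Plk5, Mex3d, Mbd3 and Uqcr11 for Tcf3, and H13, Mcts2, Cox4i2 and Bcl2l1 for Id1), those of Tcf12, Id2 and Id3 hold 1 each (Cgnl1, Kidins220 and E2f2), and those of Tcf4 and Id4 hold none. By span, 70 of the 103 regions were nearest to one of the 7 genes. A region in a window is placed by distance, and which gene it acts on was not measured.

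To compare regions that had a peak in every list, each was ranked by its −log10 q, MACS2's significance value, within its own list. The shared percentile is the place of a region among the 29849 that every list shared, with 100 the highest, and the normal score of that rank was tested with limma across all of them, KO minus f/f, with Benjamini-Hochberg adjustment at 0.05. Of the 47 shared regions at the 7 genes, 5 were higher in KO, against 12.2% of all shared regions, and 3 were lower, against 10.3% of all shared regions. In all, 17% of the 47 passed, against 22.5% of all shared regions, and the median difference was 0.0104 score units against -0.0175. The E protein genes held 1 of the 8 (of 25 tested) and the Id genes 7 (of 22 tested), against 3 of 33 and 8 of 31 without KO replicate 3, and this contrast was not tested. Without KO replicate 3, 64 regions could be tested. Of these, 7 were higher, against 8.02% of 46992 regions, and 4 were lower, against 7.86%, and 5 of the 8 regions were called in both fits. Ranked by the fold over local background in place of −log10 q, 2 of the 47 were called, and 2.81% of all shared regions were. With library weights 18 of the 47 were called, 11 higher and 7 lower, and 37.4% of all shared regions were. Without f/f replicate 2 and without f/f replicate 3, 4 regions were called each time. No share over all shared regions is given for these 2 fits. For regions below whose groups did not overlap, the share of all shared regions that did likewise is not given either. Lack of overlap alone is therefore only a description of that region.

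**Figure D2:**
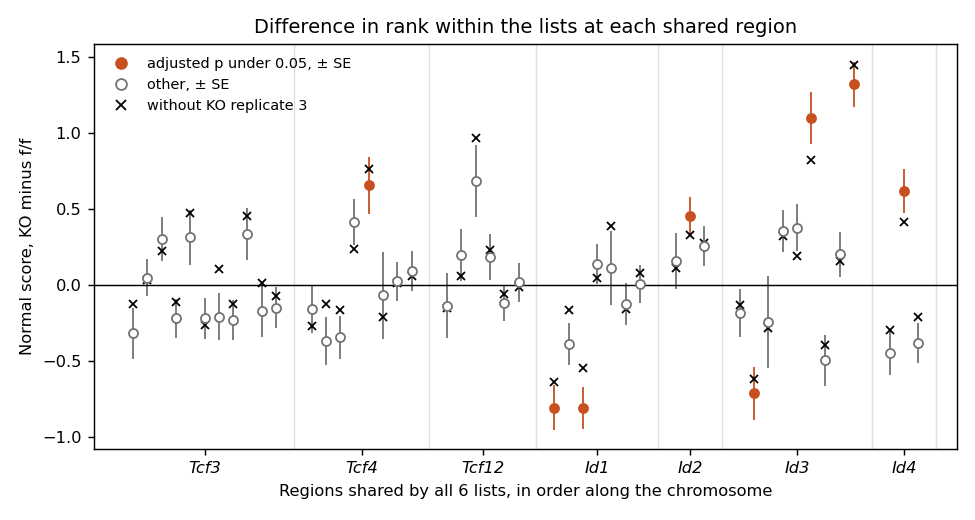
Difference in normal score, KO minus f/f, with its standard error (vertical axis), for the 47 shared regions in order along the chromosome at each gene, with crosses for the difference without KO replicate 3. The filled points, with an adjusted p under 0.05, are 1 at Tcf4, 2 at Id1, 1 at Id2, 3 at Id3 and 1 at Id4, and they run from -0.807 at Id1 to 1.32 at Id3.

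Among the E proteins, Tcf3 had 11 shared regions and 0 of them passed the limma test, 0 also at an unadjusted p under 0.05 and 0 when ranked by fold. The region over its start, chr10:80432874-80434455, had shared percentiles of 95.3, 96.7 and 93.2 in f/f and 92.5, 90.9 and 94.4 in KO, and it overlapped between the groups (difference -0.22 ± 0.14 score units, SE, limma adjusted p = 0.278). The highest region in the Tcf3 window, chr10:80398559-80400265, was nearest to Mbd3 and stood between 98.6 and 99.6 in the list percentiles. A region at chr10:80365850-80366063, nearest to Plk5, had a peak in KO replicates 1 and 2 alone, at list percentiles of 29.2 and 33.7. The list percentile is the place among all peaks of the library's own list. Over all shared regions its median was 54.4 in KO replicate 3 and 75.9 to 79.7 in the other lists. A low list percentile in KO replicate 3 is therefore not read as a difference at a single region.

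Tcf12 had 6 shared regions, of which 0 passed the limma test, 1 at an unadjusted p under 0.05 and 0 when ranked by fold. Its outer start region, chr9:72110555-72112429, which covers 2 of its promoter windows, had shared percentiles of 61.7, 56.4 and 64.8 in f/f and 57.3, 58.5 and 53.3 in KO (difference -0.12 ± 0.12, limma adjusted p = 0.496). The inner start region, chr9:71895830-71896676, had list percentiles of 41.3, 53.1 and 59.8 in f/f and 56.2 and 56.2 in KO replicates 1 and 2, and no peak in KO replicate 3. Neither start set the groups apart. The highest region, chr9:72132592-72133807, lay 20699 bp outside the span, on the side of the outer start, at list percentiles of 88.7 to 95.7. Toward Cgnl1, which encodes the junction protein paracingulin, 1 region was f/f-only, chr9:71803808-71804608, at list percentiles of 22.0, 26.2 and 21.3, and 1 had a peak in KO replicates 1 and 2 alone, chr9:71813898-71814192, at 1.57 and 9.66. Both stood low in their lists.

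In the fit without KO replicate 3, 2 regions of the Tcf12 window were higher in KO, and they are named after their values were seen. At chr9:71888268-71889202, inside the gene, list percentiles were 48.1, 49.9 and 56.5 in f/f and 60.6 and 66.9 in KO replicates 1 and 2, with no peak in KO replicate 3 (0.47 ± 0.11 score units, limma adjusted p = 0.038). At chr9:71815305-71816399, toward Cgnl1, they were 41.4, 33.6 and 36.3 in f/f and 60.3, 65.9 and 11.3 in KO (0.97 ± 0.18, limma adjusted p = 0.0201, and 0.0658 with KO replicate 3). At the latter, KO replicate 3 was the lowest library by list percentile but not by shared percentile. The shared percentiles were 9.02, 5.11 and 2.88 in f/f and 21.7, 29.0 and 6.98 in KO.

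Tcf4 spans 344539 bp, and 15 of its 18 regions overlapped the span. No region lay over either end of the span. The region closest to an end, chr18:69344039-69344637, started 610 bp inside it and was also the highest at the gene, with shared percentiles of 77.8, 77.1 and 75.3 in f/f and 64.8, 66.2 and 82.0 in KO (difference -0.16 ± 0.16, limma adjusted p = 0.498). KO replicates 1 and 2 were below and KO replicate 3 above the f/f libraries there. A region inside the gene, chr18:69608175-69608996, had shared percentiles of 6.52, 1.46 and 6.75 in f/f and 11.6, 15.0 and 16.2 in KO, and it was called higher in KO (0.66 ± 0.19, limma adjusted p = 0.0348). The groups did not overlap, but no library placed it above 16.2. The call did not hold without any one of f/f replicate 1 (limma adjusted p = 0.0508), f/f replicate 2 (0.085), f/f replicate 3 (0.0507), KO replicate 2 (0.0889) or KO replicate 3 (0.0719).

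Another pair of regions inside Tcf4 are named after their values were seen. At chr18:69345751-69346660, 2322 bp from the lower end of the span, the list percentiles were 51.2, 50.8 and 27.1 in KO, f/f replicate 3 had a peak at 8.34, and f/f replicates 1 and 2 had none. This region had a peak in 3 of 3 KO and 1 of 3 f/f libraries and was KO-only when peaks needed a −log10 q of 5. At chr18:69655198-69655976 the list percentiles were 43.9, 41.7 and 56.5 in f/f and 20.4 and 10.6 in KO replicates 1 and 2, with no peak in KO replicate 3. In the fit without KO replicate 3 the difference was -1.22 ± 0.18 score units (limma adjusted p = 0.0106). The 2 calls at Tcf4, 1 higher and 1 lower, come from different fits. The lower region had no peak in KO replicate 3, so the fit with all 6 libraries could not test it. The fit without KO replicate 3 tested both and called only the lower one.

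Of the Id genes, Id1 had a region over the lower-coordinate end of its span, chr2:152734848-152736847, with shared percentiles of 74.3, 63.7 and 65.9 in f/f and 69.9, 70.6 and 77.5 in KO (0.14 ± 0.13, limma adjusted p = 0.488). It was also the highest region at Id1. The 2 regions called lower in KO lay on the lower-coordinate side. At chr2:152726634-152727442, 8809 bp from the span, the shared percentiles were 32.1, 44.5 and 35.3 in f/f and 16.9, 9.63 and 12.8 in KO (-0.81 ± 0.14, limma adjusted p = 0.00441, and 0.0402 without KO replicate 3). At chr2:152691299-152692254, nearest to H13, which encodes signal peptide peptidase, they were 21.3, 21.1 and 23.2 in f/f and 2.97, 6.81 and 8.45 in KO (-0.81 ± 0.15, limma adjusted p = 0.00555, and 0.0276 without KO replicate 3). In both, every KO library was below every f/f library. By fold ranking neither passed (limma adjusted p = 0.0628 and 0.0944).

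On the same side of Id1, other regions went the opposite way in KO replicates 1 and 2, and they are named after their values were seen. At chr2:152729640-152730110, 6141 bp from the span, list percentiles were 13.6, 8.73 and 16.4 in f/f and 57.3 and 45.2 in KO replicates 1 and 2 (1.64 ± 0.18 score units without KO replicate 3, limma adjusted p = 0.00595). At chr2:152705997-152706664, nearest to H13, they were 23.9, 18.4 and 31.3 in f/f and 45.5 and 55.1 in KO (1.04 ± 0.14, limma adjusted p = 0.00866). KO replicate 3 had no peak at either. By presence, chr2:152767580-152768082, nearest to the apoptosis inhibitor gene Bcl2l1, was f/f-only at list percentiles of 6.12, 36.7 and 36.2, and chr2:152700739-152701170, nearest to H13, had a peak in KO replicates 1 and 2 alone, at 13.3 and 14.7. Among the regions nearest to Id1, the one 8809 bp from the span was called lower with all 6 libraries. The one 6141 bp from the span could be tested only without KO replicate 3, and was higher in that fit. The region over the span end did not pass the test.

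At Id2 the start region, chr12:25095674-25096696, which holds the promoter window shown above, had shared percentiles of 44.8, 40.3 and 34.8 in f/f and 62.3, 51.3 and 59.7 in KO. Every KO library was above every f/f library, and the difference was 0.45 ± 0.13 (limma adjusted p = 0.0352). Higher standing in KO was found at 13% of the shared regions over a promoter window in all 6 lists, and at 8.55% without KO replicate 3. The Id2 call did not hold without f/f replicate 2 (limma adjusted p = 0.0914), f/f replicate 3 (0.137), KO replicate 1 (0.102) or KO replicate 3 (0.114). The fold over local background at this region was 4.48, 3.73 and 3.72 in f/f and 6.17, 5.38 and 5.05 in KO, and by fold ranking the limma adjusted p was 0.191. The median fold over shared promoter regions was 11.7, 9.68 and 10.8 in f/f and 13.2, 13.4 and 8.56 in KO, so that folds differed between libraries as a whole.

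Regions listed in one group alone lay before the start of Id2 and not after it. On the other side, chr12:25092194-25092810, 3282 bp after the start, had a peak in all 6 lists and did not pass (0.16 ± 0.18, limma adjusted p = 0.569). An f/f-only region lay 1355 bp before the start, chr12:25097447-25098047, with list percentiles of 30.4, 16.3 and 28.4. The next region outward, chr12:25098332-25099310, 2240 bp before the start, had a peak in all 6 lists and was the highest at the gene, with shared percentiles of 47.1, 50.8 and 44.4 in f/f and 61.7, 61.3 and 49.8 in KO (0.26 ± 0.13, limma adjusted p = 0.179). Beyond it, chr12:25099486-25099836, 3394 bp before the start, had a peak in KO replicates 1 and 2 alone, at list percentiles of 29.3 and 19.2. A second f/f-only region, chr12:25143356-25143933, lay 47264 bp before the start at list percentiles of 18.0, 17.2 and 16.9. The regions listed in one group stood lower in their lists than the start region and the one 2240 bp before it, which had a peak in all 6.

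Id3 had the most regions that passed, 3 of 9 tested, while its start did not. Of the 3, 2 were higher and 1 was lower in KO. Among all shared regions of chromosome 4, 15.7% were higher and 11.5% were lower. The start region, chr4:136143225-136145187, had shared percentiles of 49.9, 44.6 and 35.7 in f/f and 52.0, 54.2 and 68.2 in KO, which did not overlap but did not pass the test (0.38 ± 0.16, limma adjusted p = 0.11). At chr4:136147596-136148506, 3774 bp after the start and past the end of the gene, the shared percentiles were 11.6, 15.7 and 14.2 in f/f and 56.3, 35.0 and 59.4 in KO (1.10 ± 0.17, limma adjusted p = 0.00271, and 0.0179 without KO replicate 3). This was the region nearest to a member gene with the largest difference of the 47. The fold there was 2.88, 2.65 and 2.84 in f/f and 5.83, 4.45 and 4.82 in KO, and by fold ranking the limma adjusted p was 0.0603. The median fold of all shared regions was 10.2, 8.14 and 9.75 in f/f and 11, 11.2 and 5.99 in KO.

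Farther from Id3, chr4:136122888-136124084, 19738 bp before the start, was lower in KO, with shared percentiles of 35.0, 39.2 and 40.2 in f/f and 14.4, 9.08 and 26.0 in KO (-0.71 ± 0.17, limma adjusted p = 0.0185, and 0.0178 without KO replicate 3). That call did not hold without f/f replicate 2 (limma adjusted p = 0.0652), f/f replicate 3 (0.0722) or KO replicate 2 (0.0582). On the other side, chr4:136177288-136178357, nearest to E2f2, which encodes a cell cycle transcription factor, was higher in KO, with shared percentiles of 0.906, 0.772 and 0.648 in f/f and 8.27, 15.9 and 18.0 in KO (1.32 ± 0.15, limma adjusted p = 0.000594). It was called in each of the 12 other fits in which it could be tested, fold ranking included (limma adjusted p = 0.0348). The f/f libraries stood among the lowest shared regions there. The highest region at Id3, chr4:136116811-136117685, 26137 bp before the start, had list percentiles of 74.8 to 94.4 and did not pass (-0.18 ± 0.16, limma adjusted p = 0.436).

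A single region of the Id3 window was f/f-only, chr4:136167567-136168192, nearest to E2f2, at list percentiles of 50.2, 42.3 and 45.4. It stood highest of the 5 f/f-only regions at the 7 genes, whose median was 25, against 24.9 over all f/f-only regions. In the fit without KO replicate 3, chr4:136110200-136111113, 32709 bp before the Id3 start and named after its values were seen, was higher in KO, with list percentiles of 50.5, 47.0 and 59.2 in f/f and 72.1 and 68.5 in KO replicates 1 and 2 (0.66 ± 0.11, limma adjusted p = 0.0142). On chromosome 4, 7.1% of all regions were f/f-only.

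At Id4 the start region, chr13:48260595-48262318, had shared percentiles of 72.8, 66.0 and 65.8 in f/f and 85.0, 81.7 and 91.1 in KO, with every KO library above every f/f library (0.62 ± 0.14, limma adjusted p = 0.0154). It held the Id4 promoter window shown above, which has no E-box. The median fold over shared promoter regions was 11.7, 9.68 and 10.8 in f/f and 13.2, 13.4 and 8.56 in KO. At the Id4 start the fold was 11.6, 8.31 and 9.44 in f/f and 16.4, 16.1 and 13.1 in KO. By fold ranking the call held (limma adjusted p = 0.0409). It did not hold without f/f replicate 2 (limma adjusted p = 0.0597), f/f replicate 3 (0.067) or KO replicate 3 (0.0523). On chromosome 13, 35.3% of the shared regions were lower in KO and 3.29% were higher, so the Id4 start went the less common way on its chromosome.

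The other 2 shared regions of Id4 were lower in KO without passing. The highest, chr13:48227719-48228539, 32577 bp before the start, had shared percentiles of 95.0, 91.4 and 93.1 in f/f and 89.8, 86.1 and 79.3 in KO (-0.44 ± 0.15, limma adjusted p = 0.0584). The region at chr13:48314321-48315197, 53205 bp after the start, had 60.7, 53.8 and 53.6 in f/f and 47.2, 41.6 and 34.3 in KO (-0.38 ± 0.13, limma adjusted p = 0.0638). In both the groups did not overlap, which is not set against a share over all shared regions. Id4 had no group-specific region.

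**Figure D3:**
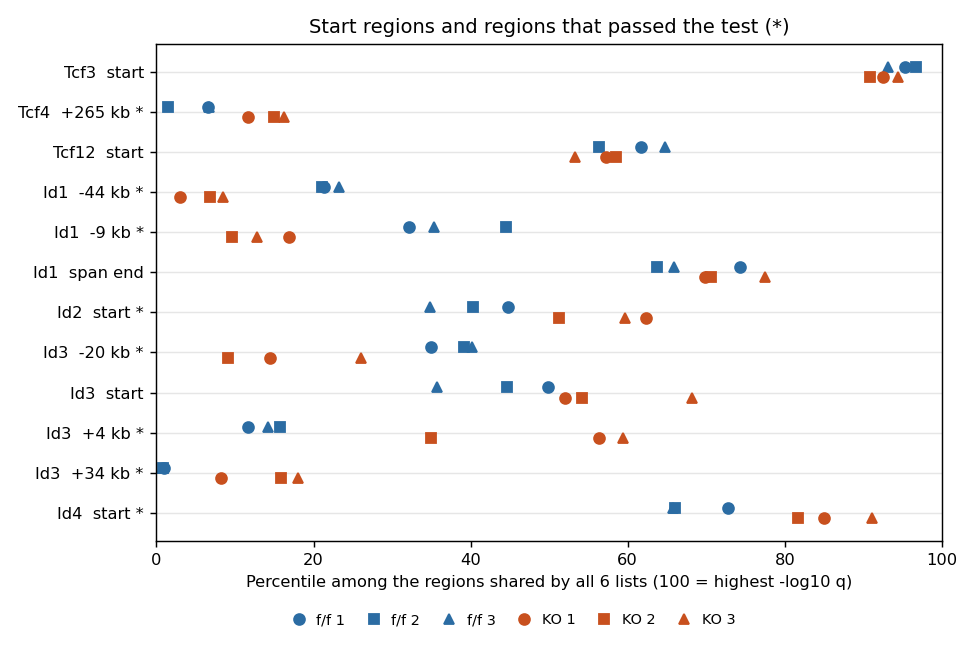
Shared percentile by −log10 q (horizontal axis, 100 the highest) of the start regions and of the 8 regions that passed the test (asterisks), 1 point per library, with distances in kb from the lower-coordinate end of the gene span. The KO points lie to the right of the f/f points at the Id2, Id3 and Id4 starts and are mixed with them at Tcf3, Tcf12 and the Id1 span end.

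At 6 genes a region over a start or span end had a peak in every list, while the inner start of Tcf12 had none in KO replicate 3. Of these, the start regions of Id2 and Id4 passed the test, both higher in KO. At Id1 and Id3 the regions that passed the test lay on both sides of shared regions that did not pass. At Id2, 1 of 3 tested regions passed, the one over the start. The map of the 4 Id genes shows where the regions lie. At Id1 the ranks fell at 44 and 9 kb below the lower end of the span, and at Id3 they fell at 20 kb below it and rose at 4 and 34 kb above it.

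**Figure D4:**
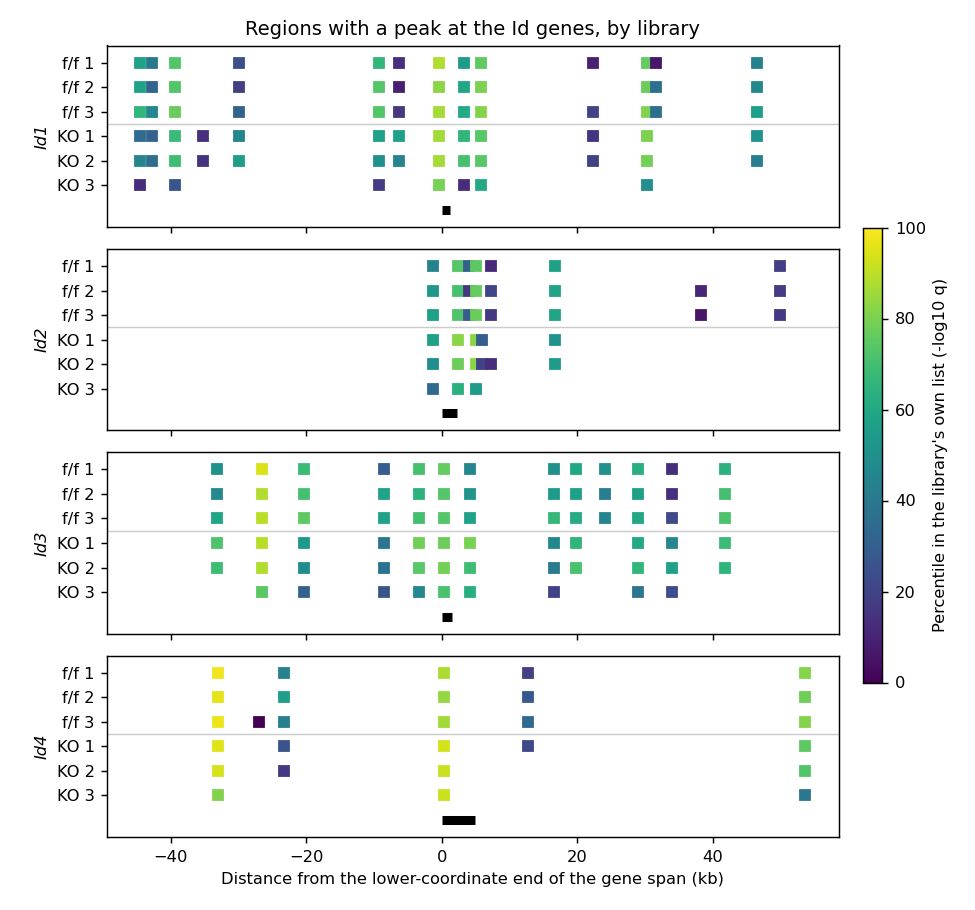
Regions with a peak at the 4 Id genes, 1 row per library, by distance in kb from the lower-coordinate end of the gene span (black bar), coloured by the list percentile. Peaks over each gene are present in all 6 rows, and KO replicate 3 lacks many of the others. Colours in the KO replicate 3 row run lower as a whole, since shared regions stand lower in its short list. At Id2 the 2 f/f-only regions, 4 and 50 kb above the lower end, are empty in the 3 KO rows.

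The genes that E proteins dimerize with were examined as a list of 20 class II factors and 3 corepressors of E proteins, chosen with the motif results of these data known. Of the 23 genes, 22 had a region within 50 kb, and Atoh1 had none. Counted gene by gene there were 167 regions, of which 7 were f/f-only (4.19%, against 3.75% of all regions), 0 were KO-only and 6 were listed for KO replicates 1 and 2 alone (3.59%, against 2.9%). Of 52 shared regions, 13 were higher and 3 lower in KO, against 12.2% and 10.3% of all shared regions. In the fit that left out KO replicate 3, 11 of 96 were higher and 8 lower, against 8.02% and 7.86%. At 4 of the 23 genes, Msc, Ptf1a, Myod1 and Cbfa2t3, every f/f list had more regions than any KO list, against 12.8% of protein-coding genes, and at 0 every KO list had more. Leaving out KO replicate 3, the same 4 stayed apart, against 12.9%, and at 3 others, Hand2, Lyl1 and Myog, both KO lists had more, against 4.74%. The genes in these last counts are named after their values were seen, apart from Lyl1 and Cbfa2t3.

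Of the dimer partners, Twist1, which in osteoblast precursors restrains Runx2, had 1 region in its window, over the gene, at chr12:33956761-33959096. Its shared percentiles were 25.9, 29.7 and 30.7 in f/f and 58.9, 63.9 and 68.4 in KO (0.92 ± 0.12, limma adjusted p = 0.00125, and 0.0132 without KO replicate 3). Tcf15, a factor of the paraxial mesoderm, had a region at chr2:152180039-152180915 with 65.6, 64.6 and 68.5 in f/f and 84.9, 79.5 and 78.4 in KO (0.46 ± 0.12, limma adjusted p = 0.0239). In both, every KO library was above every f/f library.

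The regions with the smallest adjusted p at Lyl1 and Atoh8 were nearest to other genes. At Lyl1, a haematopoietic factor, it was chr8:84722654-84723950, nearest to Nfix, with shared percentiles of 12.9, 11.6 and 10.6 in f/f and 24.9, 25.2 and 45.8 in KO (0.71 ± 0.17, limma adjusted p = 0.016). At Atoh8 it was chr6:72276992-72278070, nearest to Sftpb, with 38.5, 44.9 and 39.0 in f/f and 15.4, 14.2 and 29.9 in KO (-0.64 ± 0.16, limma adjusted p = 0.021). Of the 6 genes named by rule, the Atoh8 window was the one whose leading region was lower in KO.

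The corepressors Cbfa2t2 and Cbfa2t3 belong to the ETO family, which binds the activation domain of E proteins. At Cbfa2t2, chr2:154435965-154437212, over an end of the gene, had shared percentiles of 88.9, 77.0 and 79.3 in f/f and 96.1, 96.8 and 98.2 in KO (0.98 ± 0.16, limma adjusted p = 0.00333). At Cbfa2t3, chr8:122660824-122661752 had 35.6, 29.7 and 35.1 in f/f and 56.7, 55.3 and 50.9 in KO (0.54 ± 0.12, limma adjusted p = 0.0113). Both were higher in every KO library, and the Cbfa2t3 window also held 3 f/f-only regions. Without KO replicate 3 the limma adjusted p was 0.0208 at Cbfa2t2, 0.0335 at Cbfa2t3, 0.0465 at Tcf15, 0.0213 at Lyl1 and 0.0196 at Atoh8.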

How the data were processed

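Per the study's methods, the authors used Trimmomatic for trimming, BWA for alignment to mm10, and MACS2 2.1.2 at a q threshold of 0.05 for peaks. The treatment of duplicates and of the Tn5 offset was not given in the sources used here. For every peak the deposited lists, 1 per library, give a score for browser display, a fold over local background at the summit, a −log10 p and −log10 q value and the summit's offset. Positions, summits, −log10 q and fold were used here, and the score and −log10 p were not. The lowest −log10 q was 1.3. Since depth and background set these deposited values in each library, they were ranked within a list for every test. Folds printed for single regions were not tested as such, and folds differed between libraries as a whole. Read depth cannot be read from the lists, and no counting interval was given. The paper reports more raw reads for KO replicate 3 than for f/f replicate 1, whose list was longer. It also reports the lowest unique mapping rate of the 6 libraries for KO replicate 3. The cause of that library's short list was not tested.

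Regions were merged peaks (1 bp or more shared, highest peak per list) on chromosomes 1 to 19, X and Y, with gene spans from RefSeq GRCm38.p6, the coordinates of mm10. The table gives no strand or exons for the spans, so regions are placed by distance only. limma 3.58.1 in R 4.3.3 (lmFit, eBayes) was fitted to normal scores over all 29849 shared regions without a replicate term. Same-numbered libraries deviated from their group means with correlations of 0.0486, -0.122 and -0.138, so the numbers were not taken to pair the libraries. The merging and the fit were run on simulated data. These held no short list like that of KO replicate 3, so they do not check the calls made here. The authors' read-count comparison was not repeated, because counts were not used here.

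The members, the partner list and the tests were chosen with earlier results of these data known. The rule named, for each member, the region over the start, the highest region by mean list percentile, group-specific regions, regions past the limma test and those in KO replicates 1 and 2 alone. For partners it named at most 6 genes by the smallest adjusted p. The alternatives were a −log10 q of 5 or more, equal numbers of peaks (32958 per list), windows of 501 bp around summits, extensions of 10 and 100 kb, nearest genes only, each library left out, fold ranking, library weights, the replicate block and, added after seeing the data, a variance trend. Python 3.11.15, numpy 2.4.6, pandas 2.3.3 and scipy 1.17.1 were used.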

Additional observations from a re-analysis of the deposited data

How the results depend on the processing

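The lists hold peaks and not counts, so presence depends on the length of each list, and with 3 libraries per group 1 library can decide a call. With the same number of peaks from each list, f/f-only regions fell to 1 and KO-only regions rose to 3, 3 regions were called by rank, and the mean difference in regions with a peak turned from -15.3 to 2 over the 7 genes, to 2 at Tcf3, to 1.33 at Tcf4 and to 0.333 at Id1, with the shortening of the longer lists as the alternative's own construction. When peaks needed a −log10 q of at least 5, 1 region was KO-only, at Tcf4. Leaving out 1 library gave 5 to 9 f/f-only regions, 0 to 4 KO-only regions and 4 to 11 regions called by rank, with 4 KO-only regions without KO replicate 3 and a difference at Id1 from -2.67 to 0.333, the latter without KO replicate 3; the difference summed over the genes ranged from -22.7 to -5.17, the latter without KO replicate 3. With spans extended by 10 kb, 1 of 54 regions was f/f-only and 5 of 25 tested regions were called by rank. Of 70 regions nearest to a member, 2 were f/f-only. The number tested was 47 in the main fit, 34 with equal numbers of peaks and 64 without KO replicate 3. Counts of calls under these settings are thus out of different totals. Ranked by fold 2 regions were called and with library weights 18 (37.4% of all shared regions), and the cause was not tested. With the replicate number as a replicate block, 9 regions were called by rank in place of 8 and the summed difference stayed at -15.3, the limma adjusted p at the Id2 start being 0.0559. Shares of called regions over all regions were given only for the main fit, without KO replicate 3, by fold and with library weights. Under the other settings the counts of called, f/f-only and KO-only regions have no such share beside them. Of 176 values recomputed, 5 changed sign and 31 moved, among them 5 differences at single genes that went to 0. The other 140 kept their sign, or for counts stayed within 1.5 times, but single-gene differences among them shrank in part, as at Tcf4 to -0.167 without KO replicate 3.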
